A study of Mus musculus with 6 samples.

Results

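Mast cells and basophils were followed through 7 genes in the bone marrow of mice in which human *CDX2*, an intestinal homeobox gene, was switched on in the hematopoietic lineage. The genes were listed by symbol: *Fcer1a* and *Ms4a2*, which encode chains of the high-affinity IgE receptor, the granule enzyme genes *Mcpt8*, *Prss34* and *Cpa3*, *Hdc*, which encodes the enzyme that makes histamine, and *Il1rl1*, which encodes the receptor of IL-33. All 7 were found among the 39179 genes of the count files and all 7 were among the 15980 genes with enough reads to be tested. In *MxCDX2* marrow 5 of the 7 passed the test as lower than in control marrow, beside 9.03% of all tested genes. Of these 5, *Mcpt8* and *Prss34* alone passed whichever mouse was left out. *Cpa3* overlapped between the groups, and *Hdc* varied too widely among mice for its difference to pass the test.

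Mast cells and basophils arise from myeloid progenitors, carry IgE on the high-affinity receptor, and release histamine and proteases from granules when antigen cross-links that IgE. Basophils mature in the bone marrow and circulate, whereas mast cells leave the marrow as progenitors and complete their granules in tissues such as skin, gut and peritoneum. Factors of the GATA family act in both lineages, and IL-3, stem cell factor and IL-33 are among the cytokines to which they respond. Not all of the 7 genes belong to these cells alone, since *Hdc* is also transcribed in other marrow myeloid cells, *Cpa3* in progenitors, and *Il1rl1* in innate and regulatory lymphocytes.

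The 3 *MxCDX2* mice carried both *RsCDX2*, the human *CDX2* coding sequence behind a floxed stop in *Rosa26*, and *Mx1Cre*, a Cre gene under the interferon-inducible *Mx1* promoter. The 3 control mice were littermates of 3 genotypes, 1 animal each: control 1 was *RsCDX2*, control 2 was *Mx1Cre* and control 3 was wild type. All 6 mice, controls included, were given poly(I:C), a double-stranded RNA that induces interferon, in 3 injections of 10 µg/g into the peritoneum, and were 3 months old; whole marrow RNA was sequenced 6 weeks later. The interferon-driven Cre is not restricted to blood cells, no sort of cells is described before extraction, and the effect of each control genotype cannot be told apart from the animal that carried it.

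The libraries held 38646101 to 49899650 reads assigned to genes. The row of mouse *Cdx2* had 4, 0 and 0 reads in controls 1 to 3 and 152, 155 and 183 reads in the *MxCDX2* mice, which went with the labels. The human sequence has no row of its own, and where its reads were counted, if at all, was not checked. The first principal component, with 61.0% of the variance, separated the groups, and the second, with 15.9%, set the wild-type control apart from the other 5 mice. A gene was called when its log2 fold change was beyond 1 in either direction and its adjusted p was below 0.05 by the quasi-likelihood test of edgeR, with the Benjamini-Hochberg adjustment made over the 15980 genes. By that rule 13.6% of tested genes were called, 9.03% lower and 4.59% higher in *MxCDX2* mice. Normalized counts are reads scaled by library size and TMM factor, and the errors are SDs over 3 mice.

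Sequences around the starts of the 7 genes, except *Hdc*, are shown because GATA factors act in both lineages. They also let *Cpa3*, which was not called, be set beside genes that were. The windows, from RefSeq on GRCm38.p6, run from 250 bases before to 50 bases after a start, 5′ to 3′ on the gene's strand, and capitals mark GATA words, the letters GATA preceded by A or T and followed by A or G, read on either strand. *Prss34* (chr17:25298144-25298443, plus strand) and *Cpa3* (chr3:20242132-20242431, minus strand), the protease genes with the largest and the smallest difference between groups, each held 1 such word.
Prss34: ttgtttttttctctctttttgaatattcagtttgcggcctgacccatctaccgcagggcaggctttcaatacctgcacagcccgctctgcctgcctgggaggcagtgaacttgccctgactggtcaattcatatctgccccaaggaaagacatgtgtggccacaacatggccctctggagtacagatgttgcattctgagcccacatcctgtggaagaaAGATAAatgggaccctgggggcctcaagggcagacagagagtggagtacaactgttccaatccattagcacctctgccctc
Cpa3: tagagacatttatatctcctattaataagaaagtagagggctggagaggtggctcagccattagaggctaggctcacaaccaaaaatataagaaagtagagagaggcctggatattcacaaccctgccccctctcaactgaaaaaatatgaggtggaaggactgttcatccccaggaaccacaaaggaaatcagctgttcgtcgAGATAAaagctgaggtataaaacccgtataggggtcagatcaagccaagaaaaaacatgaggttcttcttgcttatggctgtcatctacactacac
*Mcpt8* (chr14:56085148-56085447, minus strand), a basophil protease gene called lower, held none.
Mcpt8: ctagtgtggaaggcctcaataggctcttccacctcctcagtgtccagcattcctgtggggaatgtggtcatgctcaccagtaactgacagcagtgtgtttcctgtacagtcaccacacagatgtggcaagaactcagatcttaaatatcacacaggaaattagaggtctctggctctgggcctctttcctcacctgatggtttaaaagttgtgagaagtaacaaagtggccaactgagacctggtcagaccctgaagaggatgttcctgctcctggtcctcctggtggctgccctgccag
The windows of both IgE receptor genes are given for comparison, *Ms4a2* (chr19:11623670-11623969, minus strand) with 3 GATA words and *Fcer1a* (chr1:173227180-173227479, minus strand) with 1.
Ms4a2: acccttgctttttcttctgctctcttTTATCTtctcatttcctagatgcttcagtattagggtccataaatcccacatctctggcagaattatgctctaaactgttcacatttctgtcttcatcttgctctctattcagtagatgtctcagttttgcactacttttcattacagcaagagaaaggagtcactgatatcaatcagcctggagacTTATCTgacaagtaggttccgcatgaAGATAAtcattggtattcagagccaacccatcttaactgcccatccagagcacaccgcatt
Fcer1a: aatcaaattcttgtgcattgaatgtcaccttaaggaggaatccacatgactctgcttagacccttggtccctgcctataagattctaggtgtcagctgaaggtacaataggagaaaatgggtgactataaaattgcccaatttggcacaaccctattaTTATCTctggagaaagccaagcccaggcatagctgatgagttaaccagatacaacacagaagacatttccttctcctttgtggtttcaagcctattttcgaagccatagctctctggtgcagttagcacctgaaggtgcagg
The upstream start of *Il1rl1* (chr1:40429320-40429619, plus strand) held 5 GATA words, the most of the 8 windows.
Il1rl1: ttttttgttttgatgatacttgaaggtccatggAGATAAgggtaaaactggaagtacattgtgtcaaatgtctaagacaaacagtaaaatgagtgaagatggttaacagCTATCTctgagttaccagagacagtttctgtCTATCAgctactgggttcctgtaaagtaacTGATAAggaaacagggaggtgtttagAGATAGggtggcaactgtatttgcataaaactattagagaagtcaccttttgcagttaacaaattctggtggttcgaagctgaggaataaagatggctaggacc

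The table had 8 windows for the 7 genes, with 2 starts for *Il1rl1*. The windows not shown, of *Hdc* and of the downstream start of *Il1rl1*, each held 1 GATA word. GATA words were present in 7 of the 8 windows, those of 6 of the 7 genes. Of the 32851 promoter windows of the same length in the table, 29.8% had one. At least 3 words, as in *Ms4a2*, were found in 1.76% of all windows, and at least 5, as at the upstream start of *Il1rl1*, in 0.0548%. The word ATAAA, the core of the sites that CDX factors bind, was searched on both strands. It was present in 7 of the 8 windows, those of 6 of the 7 genes, and in 40.01% of all windows. It overlaps the GATA word where AGATAAA is read. TTGCNNAA, a C/EBP-type word, was in 2 of the 8 windows and 10.8% of all, and TTCNNNGAA, a STAT5-type word, was in 0 of 8 and 8.30% of all. These matches describe letters: *Cpa3*, which was not called, and *Prss34*, which was, each carry AGATAA followed by A, beginning 46 and 31 bases before the start, and *Mcpt8* was called with neither a GATA word nor ATAAA in its window.

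The receptor genes were both lower. *Fcer1a* (ENSMUSG00000005339, GRCm38 chromosome 1, 173221284 to 173227214, minus strand) encodes the alpha chain, which binds IgE. It had 658.1, 614.6 and 868.8 normalized counts in controls 1 to 3 and 290.3, 303.7 and 118.4 in *MxCDX2* mice 1 to 3. Each *MxCDX2* mouse lay under each control, and mouse 3 was the lowest of the 6. The log2 fold change was -1.59 (SE 0.38, 95% interval -2.49 to -0.69; adjusted p = 0.0283, edgeR), from a mean of 713.9 ± 136.0 to 237.4 ± 103.3 (SD, n = 3 mice each). These values are from whole marrow, so fewer cells and less RNA per cell cannot be told apart here or in any result that follows.

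*Ms4a2* (ENSMUSG00000024680, chromosome 19, 11615523 to 11623719, minus strand) encodes the beta chain, which amplifies the receptor's signal. Its normalized counts were 373.1, 398.2 and 309.1 in the controls and 191.7, 210.6 and 117.5 in the *MxCDX2* mice. The groups did not overlap, and mouse 3 was again the lowest. The log2 fold change of -1.06 (SE 0.28; adjusted p = 0.0392, edgeR) lay close to the fold threshold, and with total counts in place of TMM scaling it was -0.93 with an adjusted p of 0.0521 (edgeR) and was not called. Of the 6 fits that left out a mouse, *Fcer1a* was called only without *MxCDX2* mouse 3 and *Ms4a2* only without control 3. *Fcer1g* encodes the gamma chain, which many other Fc receptors share. It had 12426, 10802 and 15499 normalized counts in controls and 16736, 17248 and 16422 in *MxCDX2* mice (log2 fold change 0.38, SE 0.15; adjusted p = 0.12, edgeR), so the gamma chain gene was not called.

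The proteases *Mcpt8* and *Prss34*, both products of basophil granules, were called lower whichever mouse was left out. *Mcpt8* (ENSMUSG00000022157, chromosome 14, 56082166 to 56085273, minus strand) had 3300, 4142 and 3309 normalized counts in the controls and 1447, 1682 and 893.1 in the *MxCDX2* mice. Its control values spanned a 1.26-fold range and stood above all 3 *MxCDX2* values. The log2 fold change was -1.42 (SE 0.24, 95% interval -2.00 to -0.84; adjusted p = 0.00942, edgeR).

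*Prss34* (ENSMUSG00000056399, chromosome 17, 25298394 to 25300165, plus strand) had 6941, 8891 and 8042 normalized counts in the controls and 2455, 2571 and 1021 in the *MxCDX2* mice. No *MxCDX2* mouse came near the control range, and mouse 3 was the lowest once more. The mean fell to 25.3% of the control mean (log2 fold change -1.98, SE 0.34; adjusted p = 0.01, edgeR). *Mcpt8* and *Prss34* were called in each of the 6 fits that left out a mouse, with log2 fold changes of -1.61 to -1.19 and -2.19 to -1.66. *Mcpt8* and *Prss34* belong to families of similar genes, and how the counting treated reads shared with relatives is not given in the sources used here.

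*Cpa3*, alone among the 3 protease genes, was not called. The gene (ENSMUSG00000001865, chromosome 3, 20215620 to 20242181, minus strand) encodes a carboxypeptidase of mast cell granules that is also transcribed in progenitors. Its normalized counts were 1320, 1400 and 1536 in the controls and 1107, 1855 and 678.1 in the *MxCDX2* mice. The controls were tightly grouped with an SD of 109.3, the *MxCDX2* mice were not with an SD of 595.3, and *MxCDX2* mouse 2 had the highest count of all 6. The log2 fold change was -0.23 (SE 0.34; adjusted p = 0.68, edgeR), and its 95% interval of -1.04 to 0.58 includes both no change and a fall to the fold threshold. Without *MxCDX2* mouse 3 the estimate turned to 0.07.

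**Figure D1:**
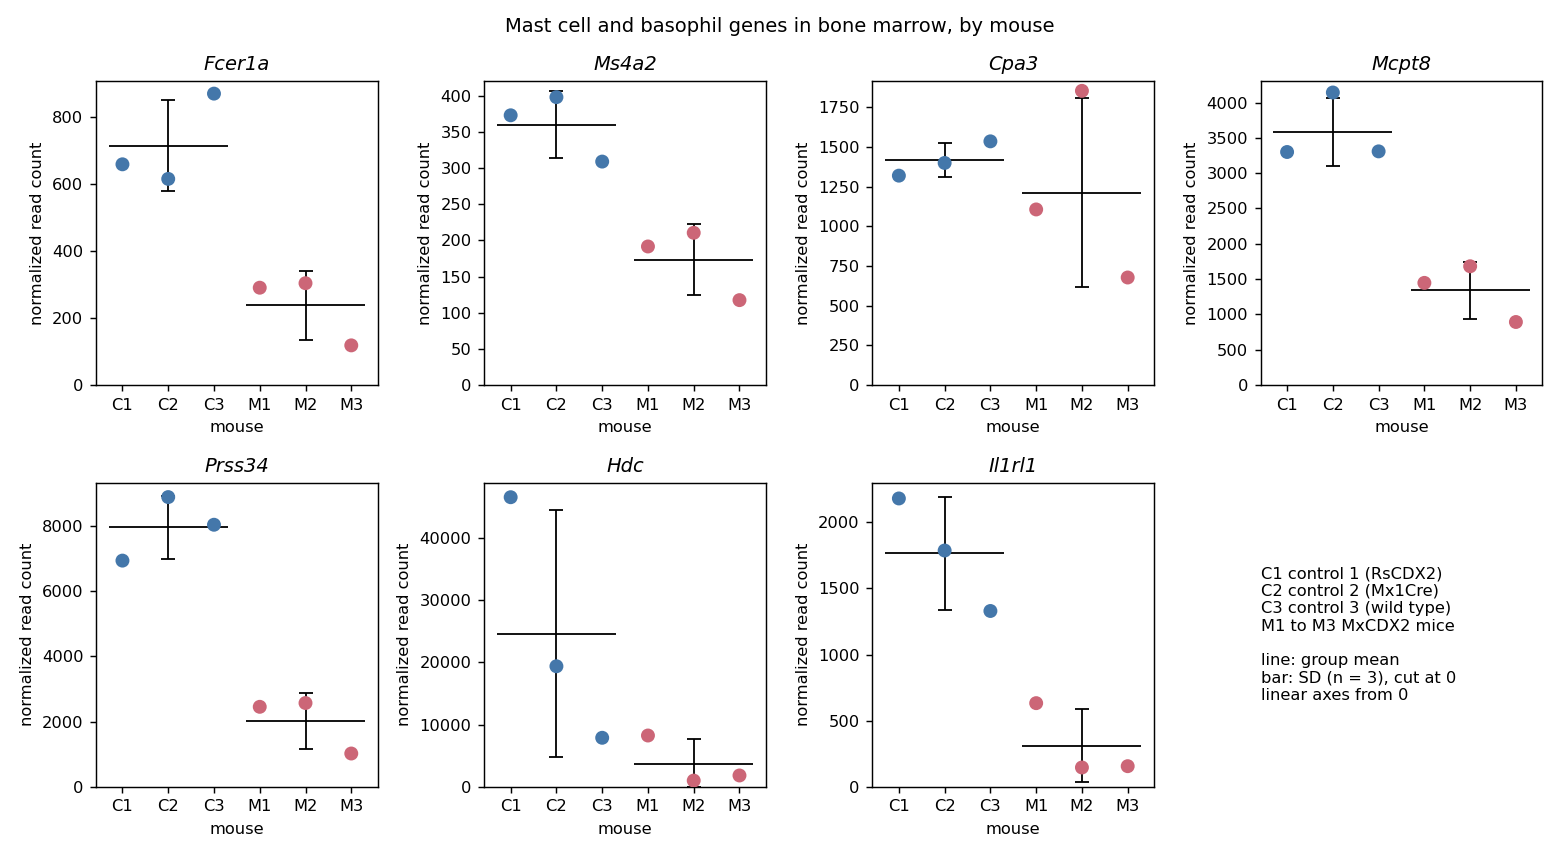
Normalized read counts (vertical axes, linear, from 0) of the 7 genes in each mouse (horizontal axes), with the 3 controls in blue, the 3 *MxCDX2* mice in red, and lines and bars for the group mean and SD. The groups are apart for *Fcer1a*, *Ms4a2*, *Mcpt8*, *Prss34* and *Il1rl1*, and overlap for *Cpa3* and *Hdc*.

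*Hdc* (ENSMUSG00000027360, chromosome 2, 126593667 to 126619299, minus strand) encodes histidine decarboxylase and was the most unequal of the 7 among mice. It had 46499, 19355 and 7870 normalized counts in the controls and 8234, 994.4 and 1819 in the *MxCDX2* mice. Controls alone spanned a 5.91-fold range, and *MxCDX2* mouse 1 stood above the wild-type control. The log2 fold change was -2.74, the largest of the 7 in size, but with an SE of 0.96 and a 95% interval of -5.03 to -0.45 its adjusted p was 0.088 by edgeR and it was not called. With *MxCDX2* mouse 1 left out it was -4.12 with an adjusted p of 0.0304 by edgeR, and in the other 5 such fits it was not called, the smallest in size being -1.88 with an adjusted p of 0.221 without control 1.

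Markers of eosinophils, which share marrow and progenitors with basophils, were uneven in the same mice. The summed level of 8 eosinophil genes was 4196, 3035 and 857.4 CPM (counts scaled by library size and TMM factor) in controls 1 to 3. It was 3178, 258.3 and 955.6 in *MxCDX2* mice 1 to 3. In both groups the mouse with the most *Hdc* had the most eosinophil marker reads, and *MxCDX2* mouse 2 had the least of both among all 6. None of the 8 was called, with log2 fold changes from -2.23 for *Ccr3*, the eotaxin receptor gene, to 1.10 for *Siglecf*, and none was at 0 in every mouse. The part of eosinophils in the *Hdc* values was not tested.

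The IL-33 receptor gene *Il1rl1* (ENSMUSG00000026069, chromosome 1, 40429570 to 40465415, plus strand) had 2180, 1786 and 1329 normalized counts in the controls and 632.4, 146.0 and 155.8 in the *MxCDX2* mice. All 3 *MxCDX2* mice were below the controls, and mouse 1 stood well above the other 2. The log2 fold change was -2.50 (SE 0.61, 95% interval -3.96 to -1.05; adjusted p = 0.0304, edgeR). It was called in 2 of the 6 fits that left out a mouse, those without control 3 or without *MxCDX2* mouse 1. The counts do not separate the membrane receptor from the soluble form, nor the gene's 2 starts in the RefSeq table. Genes of T cells and group 2 innate lymphocytes, which also carry the receptor, were called in 0 of 6 tested, with summed levels of 17.7 to 45.2 CPM in controls and 18.1 to 33.6 in *MxCDX2* mice. Their log2 fold changes ran from -0.67 for *Cd3e*, a T cell receptor complex gene, to 0.85 for *Rora*, a factor of group 2 innate lymphocytes, whose level was above all controls in each *MxCDX2* mouse (adjusted p = 0.177, edgeR).

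**Figure D2:**
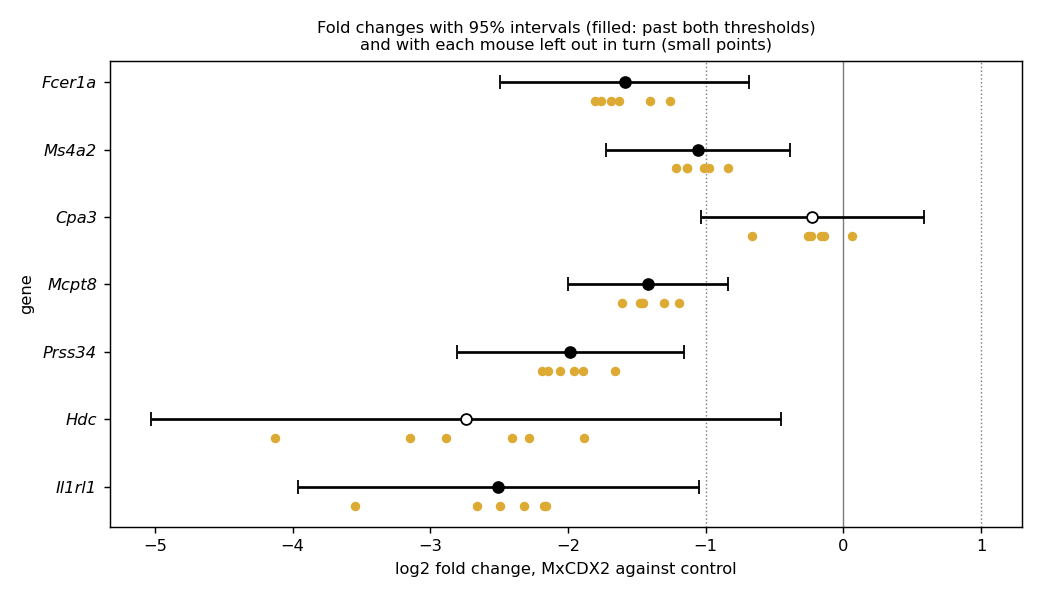
Log2 fold changes of *MxCDX2* against control mice (horizontal axis) for each gene (vertical axis), with 95% intervals, filled circles for genes past both thresholds, and small points for the estimates with each mouse left out in turn. The interval of *Cpa3* spans 0, those of the other 6 genes lie below it, and that of *Hdc* is the widest.

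Of the 7 genes, 5 were called lower and 0 higher, beside 9.03% of all tested genes called lower. In 5 of the 7 every *MxCDX2* mouse was below every control, which held for 20.7% of all tested genes. The median log2 fold change was -1.59 over the 7 and 0.00 over all tested genes. DESeq2 also called 5 of the 7 lower, where it called 10.8% of its tested genes lower. The number called fell to 2, *Mcpt8* and *Prss34*, when control 1, control 2 or *MxCDX2* mouse 2 was left out, to 3 without *MxCDX2* mouse 3, and to 4 without the wild-type control or without *MxCDX2* mouse 1, the latter including *Hdc*. An exact permutation test on 3 against 3 mice cannot give a two-sided p below 0.10, the value of the 5 genes whose groups did not overlap.

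Levels of different genes were set beside each other per kilobase of exon, as RPKM on the TMM-scaled counts. In control marrow *Prss34* was at 143.5 ± 17.6, *Hdc* at 84.6 ± 68.3 and *Mcpt8* at 79.0 ± 10.7 RPKM (SD, n = 3). *Hdc* could not be placed against either protease because its spread covered both. *Cpa3* followed at 20.6 ± 1.58 and *Fcer1a* at 15.7 ± 3.00, then *Il1rl1* at 5.63 ± 1.36 and *Ms4a2* at 2.82 ± 0.36. In *MxCDX2* marrow *Prss34* at 36.3 ± 15.6 and *Mcpt8* at 29.6 ± 8.93 lay within each other's spread, and *Cpa3* at 17.6 ± 8.63 came next to *Hdc* at 12.7 ± 13.6. *Il1rl1*, at 0.993 ± 0.887, was then level with *Ms4a2*, at 1.36 ± 0.385.

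The same reads were also set out as ratios within a mouse, which do not depend on scaling and were chosen after the values were seen. Such ratios re-express the differences above, since *Mcpt8* was called lower and *Cpa3* was not. How often ratios of other gene pairs would be free of overlap was not counted. For each read of *Mcpt8* there were 0.400, 0.338 and 0.464 reads of *Cpa3* in the controls and 0.765, 1.10 and 0.759 in the *MxCDX2* mice. The groups did not overlap, and their means differed by more than both SDs (0.401 ± 0.063 against 0.876 ± 0.197, n = 3 each). *Prss34* reads per *Mcpt8* read were 2.10, 2.15 and 2.43 in controls and 1.70, 1.53 and 1.143 in *MxCDX2* mice, again without overlap. *Ms4a2* reads per *Mcpt8* read, at 0.101 ± 0.011 and 0.130 ± 0.004, did not overlap either, whereas *Fcer1a* reads per *Mcpt8* read, at 0.203 ± 0.057 and 0.171 ± 0.035, did. *Hdc* and *Il1rl1* reads per *Mcpt8* read also overlapped between the groups. Relative to *Mcpt8*, *Cpa3* and *Ms4a2* were thus higher and *Prss34* lower in each *MxCDX2* mouse than in each control. The ratios were not tested.

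**Figure D3:**
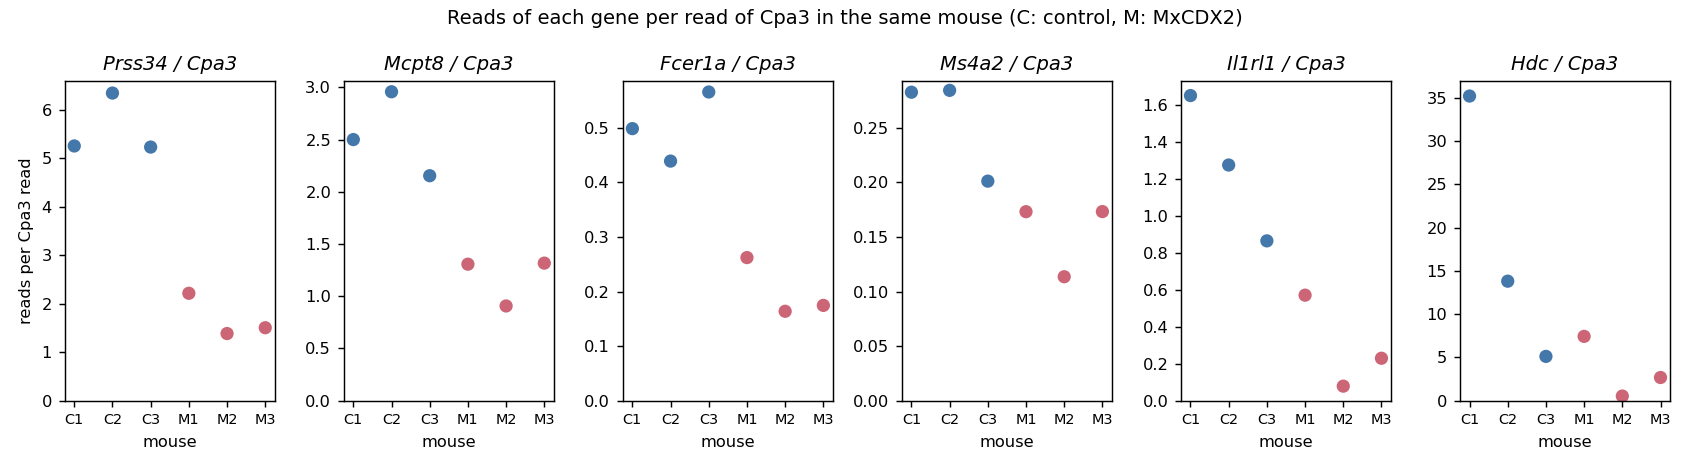
Reads of 6 of the genes per read of *Cpa3* in the same mouse (vertical axes, linear, from 0), with C1 to C3 the controls in blue and M1 to M3 the *MxCDX2* mice in red. All but *Hdc* have every *MxCDX2* mouse below every control, from 5.62 to 1.70 on average for *Prss34*.

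Across the 6 mice the log2 levels of *Mcpt8*, *Prss34*, *Ms4a2* and *Fcer1a* went together, with Pearson's r between 0.94 and 0.99 for each pair, while *Cpa3* had r of 0.11 to 0.71 with the other 6 genes and *Hdc* was closest to *Il1rl1* at 0.95. The 6 points share the difference between the groups, so these values describe the pattern and were not tested. The genes whose profile was most like the mean of the 7, among tested genes with a mean log2 CPM of at least 1, were *Spsb3* at r = 0.997, *Mylpf*, *AW011738*, *Gm14453*, *9830144P21Rik*, *Cacna1e*, *Slc26a1*, *R3hdm1*, *Tbc1d14* and *Numb* at 0.979. As many as 585 genes had r above 0.9. Of the 10 named 5 were called lower, down to -3.15 for *Slc26a1*, beside 9.03% of all tested genes. Lower values follow from the choice, since the mean profile of the 7 genes is itself lower in *MxCDX2* mice.

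The 9 listed protease genes of tissue mast cells had few reads in most mice, and 3 of them, *Mcpt4*, *Tpsb2* and *Cma1*, stood high in the wild-type mouse alone. *Mcpt4*, a chymase gene of connective tissue mast cells, had 0, 1 and 219 reads in controls 1 to 3 and 3, 0 and 0 in the *MxCDX2* mice. *Tpsb2*, a tryptase gene, had 1, 3 and 136 reads and then 0 in each *MxCDX2* mouse. *Cma1*, another chymase gene, had 11, 14 and 186 reads in controls and 6, 3 and 5 in *MxCDX2* mice. The other 6 protease genes, *Mcpt1*, *Mcpt2*, *Mcpt9*, *Cma2*, *Tpsab1* and *Tpsg1*, had 9 or fewer reads in every mouse, the wild type included. *Mrgprb1*, a mast cell receptor gene, had 1, 2 and 24 reads in controls and 0 in each *MxCDX2* mouse, whereas the related *Mrgprb2* had 0, 1 and 8 reads in controls and 0, 12 and 20 in *MxCDX2* mice. Except *Cma1*, these genes were named after their values were seen. Of the 9 tissue mast cell protease genes only *Cma1* had enough reads to be tested, and it was not called (log2 fold change -3.84, SE 1.18; adjusted p = 0.0602, edgeR). In the 5 mice other than the wild type, none of the 9 protease genes had more than 14 reads, while all 7 of the main genes had at least 135.

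**Figure D4:**
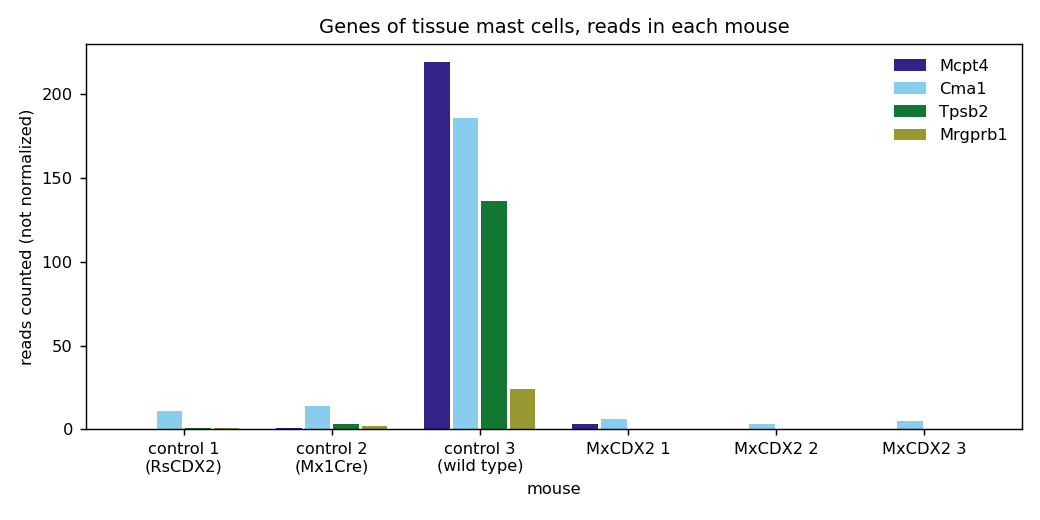
Reads of *Mcpt4*, *Cma1*, *Tpsb2* and *Mrgprb1* (vertical axis, not normalized, linear, from 0) in each of the 6 mice (horizontal axis). The wild-type control has 219, 186, 136 and 24 reads, and the other 5 mice have 14 or fewer of each.

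The wild-type control also differed in other cell markers. The summed level of 6 megakaryocyte genes was 5830 CPM in it against 705.3 and 496.7 in the other controls, and that of 5 neutrophil primary granule genes was 728.7 against 3925 and 3107. For the 7 genes the wild-type mouse was the highest control in *Fcer1a* and *Cpa3*, the lowest in *Ms4a2*, *Hdc* and *Il1rl1*, and between the others in *Mcpt8* and *Prss34*. With it left out, *Mcpt8*, *Prss34*, *Ms4a2* and *Il1rl1* were called lower, and *Fcer1a* had a log2 fold change of -1.40 with an adjusted p of 0.0548 by edgeR.

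Around the 7 genes, 90 related genes in 6 lists gave 72 that were tested, of which 12 were called lower and 5 higher, beside 13.6% of all tested genes called in either direction. Their median log2 fold change was -0.26, against 0.00 over all tested genes. In the list of IgE receptor signalling 1 of 16 was called higher and 1 lower. *Lat2*, an adaptor below the receptor, had 1590, 2092 and 2391 normalized counts in controls and 7569, 8761 and 9195 in *MxCDX2* mice. *Grap2*, another adaptor, had 3084, 4025 and 5703 in controls and 890.9, 316.4 and 610.2 in *MxCDX2* mice. *Lat2* rose (log2 fold change 2.07; adjusted p = 0.00156, edgeR) and *Grap2* fell (-2.82; adjusted p = 0.00575, edgeR). *Vav1*, at 0.43, passed the adjusted p (0.036, edgeR) but not the fold threshold. Each of these adaptors also serves receptors of other leukocytes.

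Among 20 other mast cell and basophil genes, 14 were tested, 2 were called lower and 1 higher. *Cd200r3*, a receptor gene of mast cells and basophils, had 285.0, 330.7 and 379.3 normalized counts in controls and 74.2, 138.1 and 28.7 in the 3 *MxCDX2* animals, for a log2 change of -2.05 (adjusted p = 0.0385, edgeR). *Itga2*, an integrin gene of basophils and megakaryocytes, fell by 3.30 on the log2 scale (adjusted p = 0.042, edgeR), with its highest value, 1656, in the wild-type control. *Cd200r3* and *Itga2* were named because they made up the calls, after their values were seen. *Mitf*, a mast cell and monocyte lineage factor, rose from 301.0 ± 44.98 to 1125 ± 184.6 normalized counts (1.90; adjusted p = 0.00231, edgeR). *Kit*, the stem cell factor receptor gene of mast cells and progenitors, had 3890, 3744 and 4098 counts in controls and 2306, 2578 and 2372 in *MxCDX2* mice. *Kit* had a log2 fold change of -0.69 that passed the adjusted p (0.00459, edgeR) but stayed inside the fold threshold, as did *Cd63*, a granule membrane gene, at -0.84 (adjusted p = 0.0289, edgeR).

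In the list of histamine and eicosanoid genes 3 of 11 tested were called, all lower. *Hpgds*, the prostaglandin D2 synthase gene of mast cells, had 419.1, 446.8 and 1112 normalized counts in controls and 98.5, 77.4 and 150.6 in the 3 *MxCDX2* animals. It fell by 2.60 on the log2 scale (adjusted p = 0.0123, edgeR), with the wild-type mouse well above the other controls. *Alox5*, which starts leukotriene synthesis in many myeloid cells, passed narrowly at -1.004 (adjusted p = 0.0404, edgeR). *Hrh4*, a histamine receptor gene of eosinophils and mast cells, was called at -2.74 (adjusted p = 0.0492, edgeR) on 12.8 to 38.3 normalized counts in controls and 0.980 to 9.53 in *MxCDX2* mice.

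The cytokine receptor genes were divided. *Il3ra*, which encodes the alpha chain of the receptor for IL-3, had 860.0, 1061 and 1015 normalized counts in controls and 2426, 3169 and 2762 in *MxCDX2* mice. It rose, with each *MxCDX2* mouse above each control (1.51; adjusted p = 0.00196, edgeR), in marrow where 5 of the 7 listed genes fell. *Csf2rb*, for the beta chain that the receptors for IL-3, GM-CSF and IL-5 share, and *Csf2rb2*, for a beta chain of the mouse IL-3 receptor alone, were at 0.93 and 0.76, with adjusted p of 0.00984 and 0.0301 (edgeR), under the fold threshold. *Il1rap*, the partner of *Il1rl1* in the IL-33 receptor, was at -0.83 (SE 0.23; adjusted p = 0.0474, edgeR), also under it. The list's 2 lower calls were *Il7r*, the IL-7 receptor gene of lymphoid cells, at -1.76 and *Kitl*, the stem cell factor gene, at -1.96, each named after its values were seen. *Kitl* (adjusted p = 0.0452, edgeR) had 553.3, 361.4 and 1433 normalized counts in controls, the wild-type mouse well above the rest. Its *MxCDX2* values were 194.9, 140.1 and 267.2.

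Of 14 lineage transcription factor genes 4 were called lower and 2 higher. *Gata2*, which basophils and mast cells need, had 1269, 1459 and 3599 normalized counts in controls and 859.1, 1052 and 820.9 in *MxCDX2* mice. All *MxCDX2* mice were below the controls, the wild-type mouse far above the rest, and the gene was not called (-1.21, SE 0.40, adjusted p = 0.0766, edgeR). The paper, which used DESeq2 with the same thresholds, lists *Gata2* among its downregulated factors. *Tal1*, a blood lineage factor, had 13787 to 14447 counts in controls and 3281 to 5269 in *MxCDX2* mice (-1.78; adjusted p = 0.00228, edgeR). *Cebpa*, a myeloid factor, rose from 2353 ± 163.3 to 7732 ± 1618 (1.72; adjusted p = 0.00191, edgeR), while *Runx1*, at 0.79 (adjusted p = 0.00277, edgeR), was under the fold threshold. The other calls, named after their values were seen, were *Gata1* at -3.01, its partner *Zfpm1* at -2.86, *Bhlhe40*, a factor of basophil development, at -1.22, and *Irf8*, a monocyte factor, at 1.17.

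**Figure D5:**
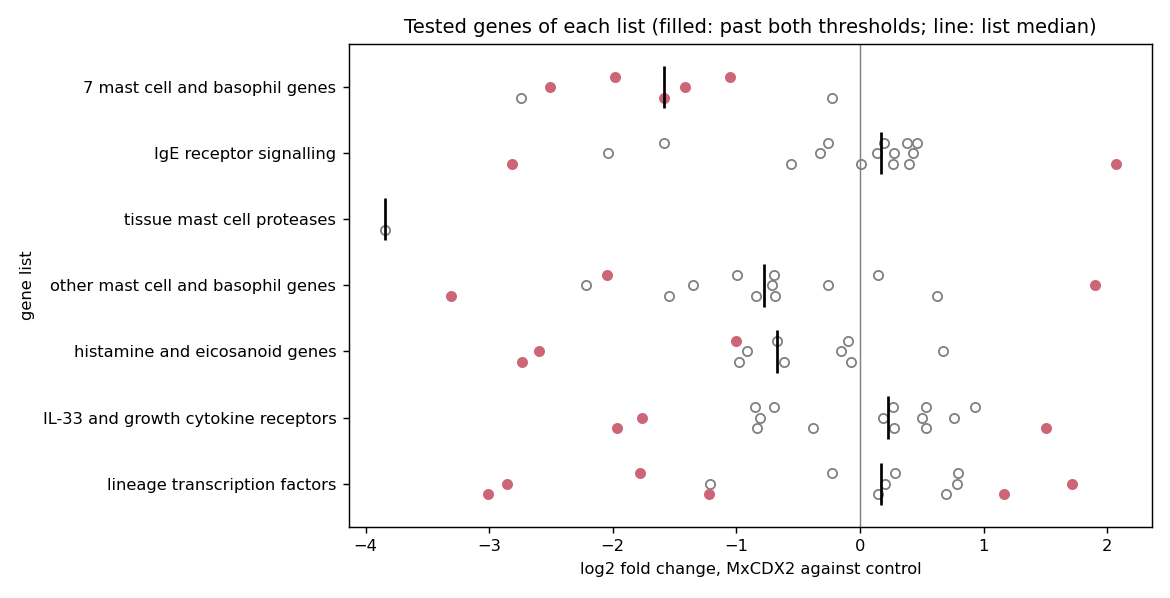
Log2 fold changes (horizontal axis) of the tested genes in each list (vertical axis), filled where past both thresholds, with a line at the list median. The 7 listed genes have a median of -1.59, the list of IgE receptor signalling 0.17 and that of histamine and eicosanoid genes -0.67.

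Markers of the main marrow populations moved at the same time, and their part in the lower values of the 7 genes was not tested. All 7 erythroid genes were called lower, from 17706 to 19603 CPM summed in controls to 473.4 to 2087 in *MxCDX2* mice, with *Hba-a1* the lowest at -4.24 and *Slc4a1* the highest at -3.40. Among monocyte genes 5 of 6 were called higher, from 896.8 to 1390 to 6095 to 7280 CPM, with *F13a1* at 3.06 and *Fcgr1* at 0.08 at the ends. Genes of mature neutrophils were called lower in 6 of 8, with *Mmp8* at -2.12 and *Ngp* at -1.06, and summed to 41931 to 65372 in controls and 17523 to 24283 in *MxCDX2* mice. Neutrophil primary granule genes were called higher in 2 of 5, ranging from -0.31 for *Elane* to 2.32 for *Ctsg*, and summed to 728.7 to 3925 and 4359 to 4631 in turn. Megakaryocyte genes were called lower in 3 of 6, from -3.73 for *Gp9* to -2.58 for *Itga2b*, with 496.7 to 5830 and 221.7 to 303.5 CPM. No stem and progenitor gene of 6 was called, with *Mecom* at -2.19 and *Cd34* at 0.91 and sums of 149.5 to 287.4 and 166.2 to 186.1. No defining gene of these lists was at 0 in all 6 mice.

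The neighbours of the 7 genes within 250 kb, a window chosen after the values were seen, included genes called in either direction. Over all tested genes 13.6% were called. *Ctsg*, beside *Mcpt8* on chromosome 14, rose by 2.32 on the log2 scale (adjusted p = 0.0237, edgeR) while *Mcpt8* fell. It was the only call among 9 tested neighbours there. Beside *Ms4a2*, 4 of 11 tested neighbours were called higher and none lower, namely *Ms4a4c*, *Ms4a6b*, *Ms4a3* and *Ms4a6c*, at 1.99 to 2.38. Next to *Fcer1a*, 2 of 4 tested were called lower, *Ackr1* at -3.10 and *Cadm3* at -2.49. Also called lower were *Ift140* at -1.74 beside *Prss34*, 1 of 12 tested, and *Slc27a2* at -3.07 beside *Hdc*, 1 of 7. Beside *Cpa3* 0 of 4 and around *Il1rl1* 0 of 5, *Il18r1* and *Il1r1* among them, were called.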

How the data were processed

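Bone marrow RNA of 6 littermate mice, 3 *MxCDX2* and 3 control, was sequenced as stranded mRNA libraries. The deposited values are raw read counts per Ensembl gene in 1 file for each mouse, which the authors made with bcl2fastq 2.17.1.14, STAR 2.5 on GRCm38 and HTSeq 0.6.1, per the submitters' processing notes, with Ensembl release 90 named in the methods. The strand setting of HTSeq is not given in the sources used here. Rows that name no gene were left out; they held 9.22 to 14.1% of reads as no feature and about 3% as ambiguous. Gene symbols, positions and exon lengths came from GENCODE M21 by Ensembl identifier, and 37693 of 39179 identifiers matched; annotated overlaps with the 7 genes were only 2 microRNA genes, with 12 and 1 reads over all mice.

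Counts were filtered with filterByExpr, scaled by TMM and tested over all 15980 remaining genes with the quasi-likelihood test of edgeR 4.0.16 in R 4.3.3, 3 mice against 3, with no covariate. The study's own test, DESeq2 (here 1.42.0), limma 3.58.1 voom, other scalings, filters and thresholds and the omission of each mouse were alternatives. Pearson's r was taken on log2 CPM, and exact permutation tests on log2 of the normalized count plus 1. Intervals are 95%. The control group came from the source name in the labels, and the *MxCDX2* group from the genotype in the sample titles. The mice are separate animals, so p-values set the group difference against the spread among mice, moderated across the tested genes. Among the controls that spread mixes animal with genotype. Named are the 7 genes, *Cdx2*, *Fcer1g*, *Kit*, *Gata2*, *Il1rap* and *Cebpa*, the tested genes with the 3 smallest p-values of each related list, the extremes of each marker list (1 such list is not reported here) and the 10 genes most like the mean profile; any other is marked where it is named. The members and lists were chosen with earlier results of these data known. Figures were drawn with matplotlib 3.10.9 in Python 3.11.15.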

Additional observations from a re-analysis of the deposited data

How the results depend on the processing

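The 5 calls among the 7 genes were also made with DESeq2's size factors, with the 10 most abundant genes left out before scaling, with either filter on low counts, with DESeq2 and with limma voom, and 4 were made with total counts only, where *Ms4a2* was lost because its log2 fold change of -0.93 missed both thresholds. At an adjusted p below 0.01 the calls were 1 of the 7 genes, 9 related genes and 1043 genes in all, against 5, 17 and 2177. Tested against a log2 fold change of 1 they were 0, 8 and 611. With DESeq2 they were 5, 24 and 2900. Leaving out 1 mouse at a time gave 2 to 4 of the 7 genes, 10 to 15 related genes and 1205 to 2406 genes in all; such fits have fewer mice, and the arm left with 2 is assumed to vary like the other. The lowest counts of related and of all genes were those without *MxCDX2* mouse 3. *Cpa3* ranged from -0.66 to 0.066 on the log2 scale over those fits and changed sign only without *MxCDX2* mouse 3, where the adjusted p was 0.896 (edgeR); the cause was not tested. The log2 fold changes of the other 6 genes kept their negative sign in all 15 alternatives. Depth was no limit for the 7 genes, with at least 135 reads per mouse, but 8 of the 9 tissue mast cell protease genes had too few reads to test. No paired analysis was possible because the control labels carry no animal number shared with the *MxCDX2* labels, and the sample numbers run from 1 to 6 across both groups.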
